A study of Zea mays with 12 samples.

Results

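Ribosome-protected fragments (RPFs) were compared between maize seedling roots after 12 hr and after 6 hr in tunicamycin (TM), to ask what changed on ribosomes during the second part of the treatment. All genes that passed a filter on low counts entered the comparison, which gave 20414 of the 39498 genes in the table, and 31318 genes had a count in at least 1 of the 4 libraries. The roots were from the inbred line B73, and each time point had biological duplicates. One set of roots had been in 5 µg/ml TM for 12 hr and the other in the same dose for 6 hr, while roots taken at 0 hr of the treatment served to estimate the spread and to show the starting level. Each lysate also gave an RNAseq library. Roots without TM at 6 and 12 hr were not analysed here, so TM cannot be told apart from time in culture. A ribo-seq library from whole roots holds many cell types, and fewer cells of a type and less RNA per cell cannot be told apart. No table used here pairs root marker genes with the identifiers in the file, so the tissue label was not checked against markers.

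TM blocks the first step of N-glycosylation in the endoplasmic reticulum (ER), and secretory proteins then misfold there. Plant cells answer with the unfolded protein response (UPR), in which transcription factors activated from the ER raise the mRNAs of chaperones, folding enzymes and factors that remove misfolded proteins. An RPF is the piece of mRNA that a ribosome shields from nuclease, so the RPF count of a gene reflects both how much of its mRNA is present and how many ribosomes it carries. RPF counts alone do not separate the 2.

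Total counts of the ribo-seq libraries were 3056533 and 12328304 at 12 hr, against 1667094 and 7507952 at 6 hr. Following the study's methods, libraries were first scaled to equal counts of actin (Zm00001d013873), of which the libraries had 123 and 445 counts at 12 hr, against 80 and 336 at 6 hr. In CPM (counts scaled to the same library total), actin was at 40.2 and 36.1 at 12 hr and at 48.0 and 44.8 at 6 hr. Both 12 hr libraries were thus below both 6 hr libraries. The log2 difference in actin per total count was -0.28, with a standard error of 0.12 from counting alone. Scaling to actin lifts all other genes at 12 hr by that amount, so results are given also with TMM factors, which assume that most genes do not change. The 0 hr duplicates were further apart in actin, with 29.3 CPM in replicate 1 and 52.3 CPM in replicate 2. That gap enters every 0 hr value per actin count and the spread of the actin fit.

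RPF levels of most genes differed little between 12 and 6 hr. With actin scaling the median log2 change was 0.29, with 0.24 in the libraries of replicate 1 and 0.33 in those of replicate 2, and 90% of genes lay between -0.43 and 1.04. With TMM scaling the median was 0.01, and 90% of genes lay between -0.71 and 0.76. More than 2-fold higher levels at 12 hr were fitted for 2.61% of genes and more than 2-fold lower levels for 2.18% with TMM. Among the 9938 genes that averaged at least 100 counts, these shares were 0.634% and 0.151%.

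The differences between time points were of the same size as those between duplicates. Over the 3751 genes with at least 100 counts in each of the 4 libraries, the log2 difference of 12 hr replicate 1 over 6 hr replicate 1 had an SD of 0.274, and that of 12 hr replicate 2 over 6 hr replicate 2 had 0.342. For the 2 pairs that cross the replicate numbers the SD was 0.373 and 0.474. The SD was 0.406 between the 12 hr duplicates and 0.391 between the 6 hr duplicates. Duplicates differed by more than counting error, with chi-square values of 11.2 (12 hr) and 6.30 (6 hr) for each degree of freedom, where counting error alone gives about 1. No libraries were counted as 1 sample.

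**Figure D1:**
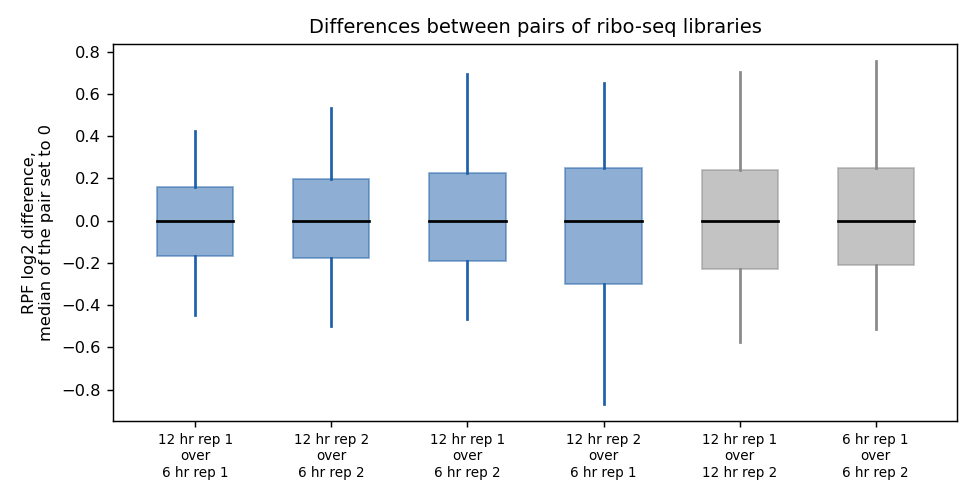
RPF log2 differences over 3751 genes for 6 pairs of ribo-seq libraries, with the median of each pair set to 0. Boxes span the middle 50% of genes and lines the middle 90%. The 4 pairs of 12 hr over 6 hr libraries (blue) have SDs of 0.274 to 0.474, and the pairs of duplicates (grey) have 0.406 at 12 hr and 0.391 at 6 hr.

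Of the 20414 genes tested, 9 were higher and 1 was lower in RPFs at 12 hr at an adjusted p under 0.05 with actin scaling (0.0441% and 0.0049% of genes tested, quasi-likelihood test of edgeR, n = 2 libraries for each time). At an unadjusted p under 0.05 there were 396 higher and 26 lower genes. With TMM scaling 0 genes passed (0%), the smallest adjusted p was 0.114, and 315 genes were higher and 229 lower at an unadjusted p under 0.05. When no gene changes, a share of 0.05 of those tested falls under that p, and the counts under each scaling were below that share. DESeq2 called 0 genes with actin size factors. With its own size factors it called 2 higher and 7 lower genes, of which 2 were among the 10, so most of its calls ran in the other direction. The voom method of limma called 5 higher genes with actin scaling, 4 of them among the 10. Both 12 hr libraries lay above both 6 hr libraries in 35.8% of genes per actin count and in 16% with TMM, and below them in 4.3% and 14.3%. No gene had 0 counts in both libraries of either time point and at least 10 in both of the other, while 55 genes had 0 counts in both 6 hr libraries and at least 3 in both 12 hr libraries, and 5 genes the reverse, with 6 hr replicate 1 the shallowest library. The p-values of the actin fit follow a normal curve, and the gap between the duplicates of any single gene hardly enters them. Without 6 hr replicate 1 none of the 10 calls passed, without 6 hr replicate 2 there were 2 calls, and without either 12 hr library 3. Without 0 hr replicate 1 there were 5 calls, 4 of them among the 10.

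**Figure D2:**
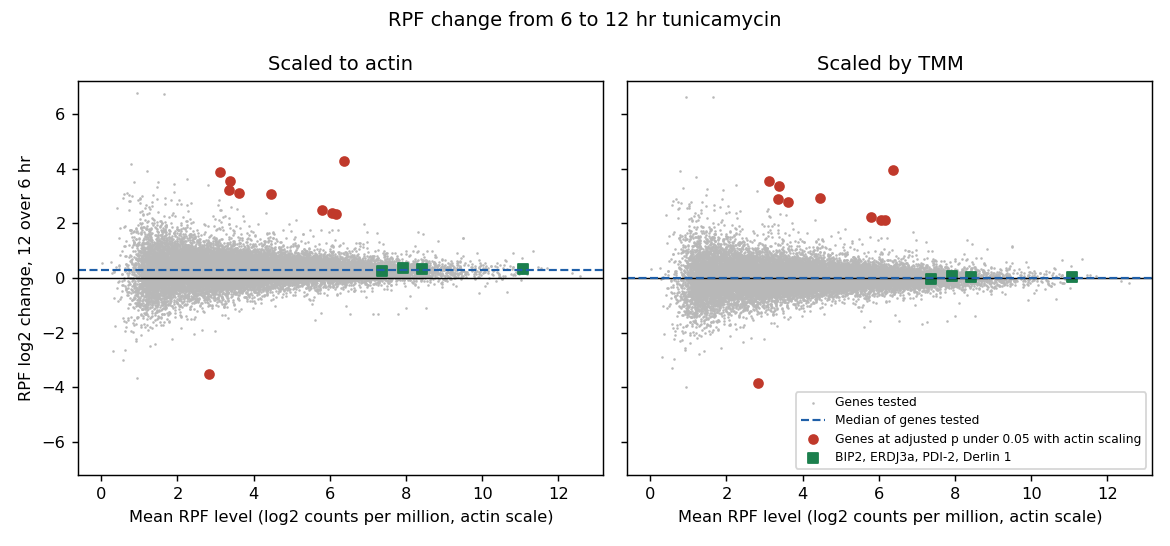
RPF log2 change, 12 over 6 hr, against the mean RPF level in log2 CPM, with actin scaling (left) and TMM scaling (right). Each grey point is 1 of 20414 genes, the dashed line is their median (0.29 and 0.01), red points are the 10 genes past the test with actin scaling, and green squares are BIP2, ERDJ3a, PDI-2 and Derlin 1, which lie at the median.

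The RPF levels of the UPR genes at 12 hr did not differ from those at 6 hr beyond the error of the comparison. BIP2 (Zm00001d014993) encodes an Hsp70 that binds unfolded proteins in the ER lumen. Its RPF counts were 10813 and 30627 at 12 hr, against 5300 and 19959 at 6 hr, which is 8791 and 6882 per 100 actin counts at 12 hr, against 6625 and 5940.2 at 6 hr. Both 12 hr libraries were above both 6 hr libraries per actin count. In CPM they overlapped, with 3538 and 2484 at 12 hr, against 3179 and 2658 at 6 hr. The log2 change was 0.32 (standard error 0.40, adjusted p = 1.00), a 1.25-fold level with a 95% interval of 0.727 to 2.14. With TMM scaling it was 0.05 (standard error 0.23, 0.755- to 1.42-fold). Near-identical BIP copies may share these reads.

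ERDJ3a (Zm00001d047726), a DnaJ-type co-chaperone that assists BiP, had 1341 and 1277 RPF counts per 100 actin counts at 12 hr, against 936 and 1174 at 6 hr. The groups did not overlap, but with TMM scaling they did. Its log2 change was 0.31 with actin (standard error 0.44, 95% interval of the fold 0.685 to 2.24) and 0.04 with TMM (standard error 0.21, 0.775 to 1.37), and neither passed the test.

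PDI-2 (Zm00001d005866), a protein disulfide isomerase that forms and rearranges disulfide bonds in secretory proteins, had 598 and 511 RPF counts per 100 actin counts at 12 hr, against 445 and 493 at 6 hr. The 12 hr libraries were the higher ones per actin count and overlapped the 6 hr libraries with TMM. The log2 change was 0.24 with actin (standard error 0.45, 0.641- to 2.18-fold) and -0.03 with TMM (standard error 0.23, 0.722- to 1.33-fold).

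Derlin 1 (Zm00001d010368), a membrane protein of ER-associated degradation, had 885 and 773 RPF counts per 100 actin counts at 12 hr, against 545 and 754 at 6 hr. Again the groups did not overlap per actin count and did with TMM, and the lowest value was that of 6 hr replicate 1. The log2 change was 0.35 with actin (standard error 0.44, 0.698- to 2.32-fold) and 0.09 with TMM (standard error 0.26, 0.745- to 1.51-fold).

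The 4 genes had a median log2 change of 0.31 with actin scaling and 0.05 with TMM, beside 0.29 and 0.01 over all genes tested, and 0 of the 4 passed the test under either scaling. Per actin count, both 12 hr libraries lay above both 6 hr libraries in each of the 4, as they did in 35.8% of all genes tested. Of all genes tested, 43.2% had a larger change than Derlin 1 and 56.1% a larger change than PDI-2 with actin scaling. Of all RPF counts, the 4 genes together took 0.0822 and 0.0847% in the 0 hr libraries, 0.410 and 0.374% in the 6 hr libraries, and 0.467 and 0.341% in the 12 hr libraries. Their share was thus higher in each treated library than at 0 hr, and the 12 hr libraries lay on both sides of the 6 hr libraries. Set against the same 0 hr libraries, the RPF log2 change of BIP2 was 1.98 at 6 hr (standard error 0.41, adjusted p = 0.00134) and 2.30 at 12 hr (standard error 0.42, adjusted p = 6.52e-05). That of ERDJ3a was 2.89 at 6 hr (standard error 0.47, adjusted p = 1.89e-06) and 3.20 at 12 hr (standard error 0.48, adjusted p = 7.29e-08). PDI-2 had 1.37 and 1.61 and Derlin 1 had 1.17 and 1.52 at 6 and 12 hr, which did not pass with actin scaling. With TMM PDI-2 passed at both times, with 1.65 at 6 hr (adjusted p = 0.0324) and 1.62 at 12 hr (adjusted p = 0.0166), and Derlin 1 passed at neither, with 1.39 (adjusted p = 0.151) and 1.48 (adjusted p = 0.0692).

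**Figure D3:**
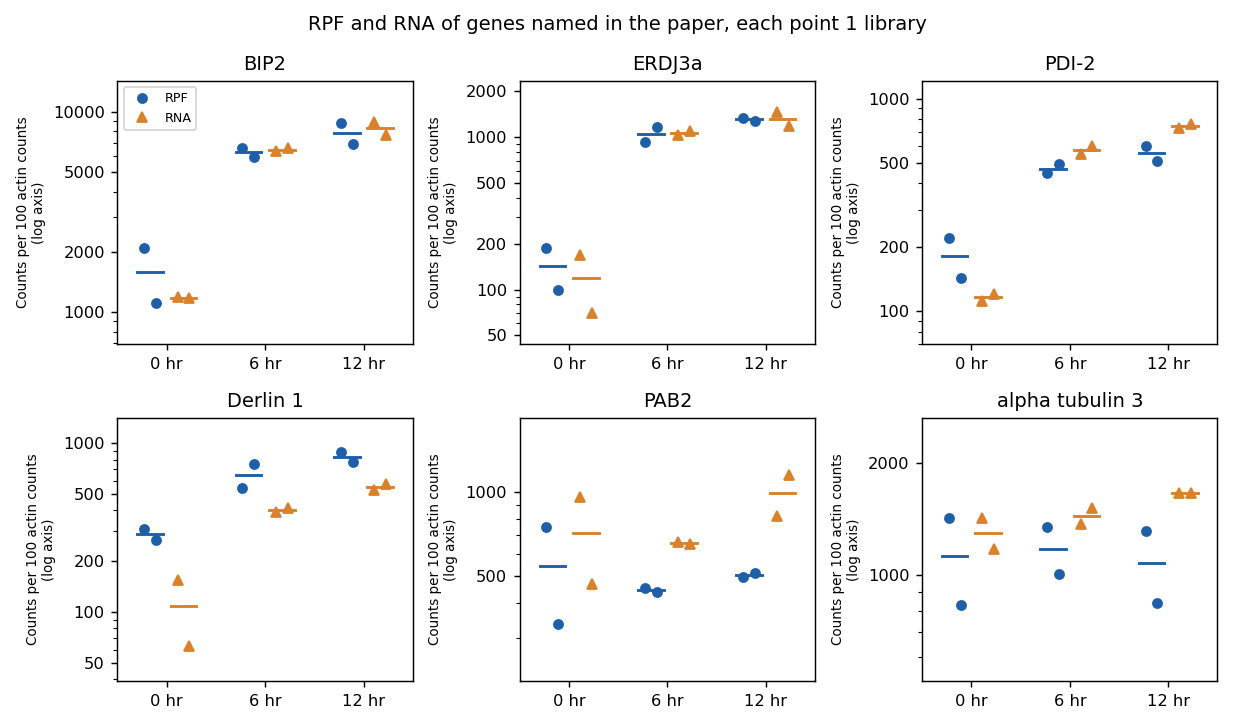
RPF (blue circles) and RNA (orange triangles) counts per 100 actin counts of the same library, on a log axis, at 0, 6 and 12 hr for 4 UPR genes, PAB2 and alpha tubulin 3. Each point is 1 library and each bar the mean of 2. Both RPF libraries of each UPR gene lie above both 0 hr libraries at 6 and at 12 hr, and the 12 and 6 hr points lie close together, as for BIP2 with 8791 and 6882 RPF counts per 100 actin counts at 12 hr, against 6625 and 5940.2 at 6 hr.

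Values of 3 genes outside the UPR are given for comparison. PAB2 (Zm00001d005276), a poly(A)-binding protein, had 497 and 515 RPF counts per 100 actin counts at 12 hr, against 454 and 437 at 6 hr. As in the UPR genes, the groups of PAB2 did not overlap per actin count and did with TMM. Its log2 change was 0.18 with actin (standard error 0.45) and -0.10 with TMM (standard error 0.21). Alpha tubulin 3 (Zm00001d013367), a cytoskeletal gene, had 1309 and 840.0 per 100 actin counts at 12 hr, against 1345 and 1006 at 6 hr, and the groups overlapped. Its log2 change was -0.13 with actin (standard error 0.43) and -0.39 with TMM (standard error 0.29). Actin itself had a log2 change of -0.28 with TMM (standard error 0.30). None of the 3 passed the test.

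The gene with the largest RPF rise past the test was Zm00001d007285, for which no name is given here. Its RPF counts were 152 and 619 at 12 hr, against 3 and 28 at 6 hr. Per 100 actin counts that is 124 and 139 at 12 hr against 3.75 and 8.33 at 6 hr, and the groups were far apart. The log2 change was 4.26 (standard error 0.58, 19.2-fold with a 95% interval of 8.69 to 42.3, adjusted p = 5.20e-09). The call held in 10 of 17 alternative settings, over which the adjusted p ran from 6.37e-09 to 1.00 and the log2 change from 3.84 to 5.11. With TMM the change was 3.96 (standard error 1.31, adjusted p = 1.00), with edgeR's robust fit 4.26 (standard error 2.65, adjusted p = 1.00) and with DESeq2 4.42 under actin size factors (adjusted p = 1.00). The call was also lost without 6 hr replicate 1 (log2 3.97, adjusted p = 0.115). At 0 hr the duplicates of this gene stood apart, with 889 counts in replicate 1 and 27 in replicate 2. In a TMM fit of the 6 and 12 hr libraries alone, which leaves the 0 hr duplicates out of the estimate of the spread and was added after seeing the data, the adjusted p was 0.00646.

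Zm00001d042143 had the second largest rise. It had 36 and 264 RPF counts at 12 hr, against 1 and 13 at 6 hr, or 29.3 and 59.3 per 100 actin counts at 12 hr, against 1.25 and 3.87 at 6 hr. Both 12 hr libraries were also above both 0 hr libraries, which had 20.8 and 2.62. The log2 change was 3.86 (standard error 0.75, 14.5-fold with a 95% interval of 5.24 to 40.2, adjusted p = 0.00216) with actin and 3.55 (standard error 0.71, adjusted p = 0.746) with TMM. The call held in 9 of 17 alternative settings (adjusted p from 6.53e-04 to 1.00), and was lost in the absence of either 6 hr library or of 12 hr replicate 2.

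The other 7 genes that rose averaged 33.8 to 405 counts over the 4 libraries, and the 9 together rose 5.04- to 19.2-fold. A pair of them with consecutive identifiers had nearly the same profile. The first of the pair had 278 and 947 RPF counts at 12 hr, against 36 and 115 at 6 hr (log2 2.49, standard error 0.52, adjusted p = 0.0086), and the second had 345 and 1078 at 12 hr, against 45 and 151 at 6 hr (log2 2.38, standard error 0.51, adjusted p = 0.0086). Reads that fit both members of such a pair could be split between them, so they may not be separate observations. In 5 of the 9 genes 12 hr replicate 1 was the higher of the duplicates per actin count, and the duplicates differed by 1.06 to 20.0 times. The widest was a gene with 4 and 290 counts at 12 hr, against 2 and 15 at 6 hr. It was the only one of the 10 called genes whose time points overlapped, and without 12 hr replicate 2 its log2 change of 3.21 turned to -0.21. Among higher genes that averaged at least 50 counts and did not overlap, a gene outside the 10 had the smallest p under TMM. That gene had 547 and 2515 RPF counts at 12 hr, against 95 and 462 at 6 hr. Its log2 change was 1.98 with actin (standard error 0.48, adjusted p = 0.0614) and 1.69 with TMM (standard error 0.33, adjusted p = 0.725). Over the alternative settings it ran from 1.68 to 2.16.

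All 9 genes that rose between 6 and 12 hr were also uneven at 0 hr. Actin itself was at 29.3 CPM in 0 hr replicate 1 and at 52.3 CPM in 0 hr replicate 2, so actin scaling raised replicate 1 for all other genes. Per actin count, 0 hr replicate 1 was 3.18 to 105 times as high as 0 hr replicate 2 in the 9 genes. It was the higher duplicate in 91.9% of all genes tested, and more than 3 times as high in 15.4%. With TMM it was at least 1.75 times as high in the 9 genes. Replicate 1 lay above both 6 hr libraries per actin count in 9 of 9, beside 79.7% of all genes. In 3 of the 9 both 0 hr libraries were above both 6 hr libraries (14.5% of all genes), in 0 both were below (4.67%), and in 1 (Zm00001d042143) both were below both 12 hr libraries (10.6%). Zm00001d007285, for example, had 926 RPF counts per 100 actin counts in 0 hr replicate 1, against 124 and 139 at 12 hr. Across the 3751 genes well counted at 6 and 12 hr, the log2 difference of 0 hr replicate 1 over replicate 2 had a Pearson r of 0.279 (Spearman rho 0.238) with the 12 over 6 hr change under TMM. These 2 measures share no library, and genes are not independent replicates. The part that this unevenness has in the rise was not tested.

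The 1 gene that fell past the test was Zm00001d007462. Its mean of 35 counts is under the minimum of 50 set for naming genes, and it is named because it was the sole call in its direction. Its RPF counts were 6 and 14 at 12 hr, against 58 and 62 at 6 hr. Per 100 actin counts it was at 5.21 and 5.57 at 0 hr, at 72.5 and 18.5 at 6 hr, and at 4.88 and 3.15 at 12 hr. Both 6 hr libraries thus stood above all the others. The log2 change, 12 over 6 hr, was -3.51 (standard error 0.75, adjusted p = 0.0086) with actin and -3.84 (standard error 0.75, adjusted p = 0.725) with TMM. It was -2.25 without 6 hr replicate 1 (adjusted p = 1.00), and the call was lost without any 1 library other than 6 hr replicate 2. Over 17 alternative settings it held in 5, with an adjusted p from 9.48e-04 to 1.00.

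With TMM scaling the smallest p-values belonged to genes lower at 12 hr. Of the 10 such genes with the smallest p among those that averaged at least 50 counts and did not overlap, 5 had identifiers within 10 numbers of Zm00001d004729. That gene had 251 and 1134 RPF counts at 12 hr, against 448 and 1945 at 6 hr, or 82.1 and 92.0 CPM at 12 hr, against 269 and 259 at 6 hr, and the groups were well apart. At 0 hr it had 126 and 117 CPM, between them. Its log2 change was -1.60 with TMM (standard error 0.21, adjusted p = 0.114) and -1.31 with actin (adjusted p = 1.00). DESeq2 with its own size factors called it (adjusted p = 3.34e-07), as did TMM with the 6 and 12 hr libraries alone (adjusted p = 0.0391), which was added after seeing the data. Of the 18 settings planned beside the actin fit, the call of DESeq2 was the only 1. The 5 genes had TMM log2 changes of -1.81 to -1.38 and adjusted p of 0.114 to 0.491, and the other 4 genes tested in the same stretch of identifiers had -0.17 to 0.65. The stretch was chosen after seeing the values. Identifiers this close may belong to gene copies, in which case reads that fit several of them could be split between them. The 5 genes may thus not be separate observations.

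**Figure D4:**
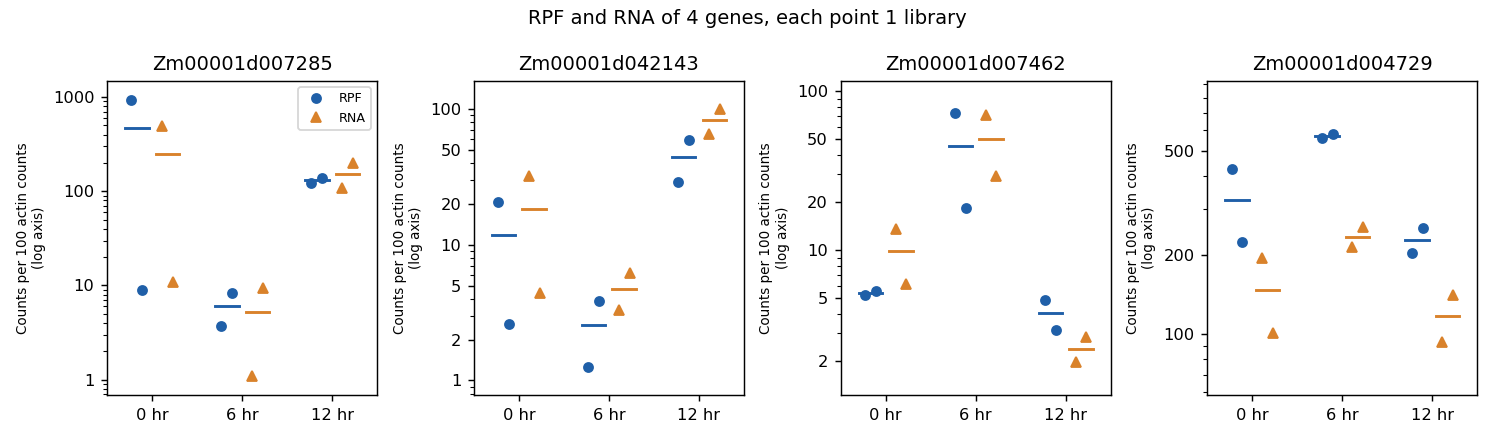
RPF (blue circles) and RNA (orange triangles) counts per 100 actin counts, on a log axis, at 0, 6 and 12 hr for the 4 genes whose identifiers are given. Each point is 1 library and each bar the mean of 2. Zm00001d007285 and Zm00001d042143 are higher at 12 than at 6 hr in both library types, Zm00001d007462 and Zm00001d004729 are lower, and the 0 hr duplicates of Zm00001d007285 lie at 926 and 8.85 in RPFs.

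RNA from the same lysates, which the RPF comparison does not use, had a fitted difference of the same sign for each of the 10 called genes with actin and with TMM scaling, though none of these RNA differences passed the test. Over all genes tested in both, the RNA and RPF differences had the same sign in 79.4% with actin, where 89.5% of genes had a positive RNA value, and in 59.98% with TMM. The 9 genes that rose in RPFs had a median log2 change of 3.10 in RPFs and 2.62 in RNA with actin. All 9 had fitted RNA levels more than 2-fold higher at 12 hr, with actin and with TMM, beside 6.25% and 1.43% of all genes tested in both. Both 12 hr RNAseq libraries lay above both 6 hr libraries in 6 of the 9 per actin count and in 5 of the 9 with TMM, beside 51.1% and 16.5% of those genes. For Zm00001d007285 the RNA counts were 219 and 211 at 12 hr, against 4 and 12 at 6 hr, and the RNA log2 change was 5.25 (standard error 1.23). For Zm00001d042143 they were 134 and 107 at 12 hr, against 12 and 8 at 6 hr, with a log2 change of 4.21 (standard error 0.76). For Zm00001d007462 they were 4 and 3 at 12 hr, against 258 and 38 at 6 hr, with a log2 change of -4.42 (standard error 0.75). For Zm00001d004729 they were 190 and 149 at 12 hr, against 777 and 332 at 6 hr, with a log2 change of -1.46 under TMM. The RNA and RPF libraries of a lysate share their root sample, so they are not independent in this respect.

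RNA of the UPR genes was likewise near its 6 hr level. BIP2 had 8886 and 7671 RNA counts per 100 actin counts at 12 hr, against 6348 and 6559 at 6 hr, a log2 change of 0.36 (standard error 0.25) with actin and -0.04 (standard error 0.24) with TMM. ERDJ3a had 0.30 and -0.09, PDI-2 had 0.37 and -0.05, and Derlin 1 had 0.45 and 0.03 with actin and TMM. The median over all genes was 0.45 with actin and 0.01 with TMM.

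No RNA change passed the test over the 23721 genes with actin scaling (0%), where the smallest adjusted p was 0.466 and 1135 genes were higher and 32 lower at an unadjusted p under 0.05. With TMM 0 passed, and 286 were higher and 280 lower at that p. Under each scaling these counts were below the 0.05 share of genes tested that falls there when no gene changes. DESeq2 with actin size factors called 2 genes. The count depended on the 0 hr libraries, which enter the estimate of the spread, in that 141 genes passed when 0 hr replicate 1 was left out and 154 when 0 hr replicate 2 was. With the 6 and 12 hr libraries alone it was 156 with actin (152 higher and 4 lower) and 16 with TMM (10 higher and 6 lower). Under TMM with those libraries alone, 6 genes passed in RPFs (4 higher and 2 lower), and 5 of them passed in RNA too, each with the same sign.

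Across the 20055 genes tested in both, the RPF and RNA log2 changes had a Pearson r of 0.353 and a Spearman rho of 0.280 with TMM. Among the 3703 genes with at least 100 counts in each 6 and 12 hr library of both types, r was 0.579 (rho 0.452), with 0.412 within replicate 1 and 0.617 within replicate 2. When RNA was taken from the lysates of one replicate number and RPFs from those of the other, r was 0.165 and 0.0864. The RPF changes of the replicate numbers had an r of 0.237 with each other. These are descriptions across genes. The genes at an unadjusted p under 0.05 for RPFs with TMM had RNA changes of the same sign in 258 of 307 (84.0%) that were higher and 195 of 225 (86.7%) that were lower, beside 59.98% of all genes tested in both. The median RNA log2 change was 0.45 in those higher in RPFs and -0.41 in those lower, where the RPF medians were 1.08 and -1.07. The genes were picked by RPFs from the same lysates as the RNA, so the RNA values are not independent of that choice.

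**Figure D5:**
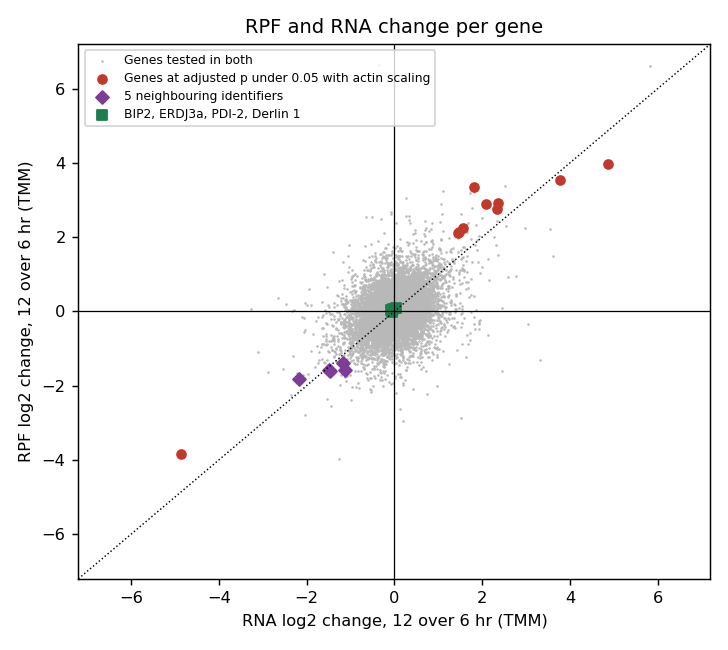
RPF log2 change against RNA log2 change, 12 over 6 hr, both with TMM scaling, for the 20055 genes tested in both (grey). Red points are the 10 genes past the RPF test with actin scaling, purple diamonds the 5 genes with identifiers near Zm00001d004729, green squares the 4 UPR genes, and the dotted line marks equal change. Red points and diamonds lie in the quadrants of equal sign and the UPR genes near 0.

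Translation efficiency, the RPF level relative to the RNA level of the same lysate, did not pass the test for any of the 20055 genes (0%) at 12 against 6 hr in edgeR's quasi-likelihood test. At an unadjusted p under 0.05, 65 genes were higher and 269 lower with actin, and 229 were higher and 160 lower with TMM, where 0 passed as well. These counts too were below the 0.05 share of genes tested that falls there when no gene changes. DESeq2 with actin size factors called 0. Leaving out 12 hr replicate 1 gave 1 call. The median log2 change was -0.12 with actin and 0.03 with TMM. The difference between duplicates in RNA correlated across genes with that in RPFs of the same lysates at 0.451 at 0 hr and 0.504 at 12 hr, but at 0.0163 at 6 hr, so at 6 hr the pairing of libraries by lysate, on which the ratios rest, was not visible in the data. For BIP2 the ratio of RPF to RNA, each per actin count, was 0.989 and 0.897 at 12 hr, against 1.04 and 0.906 at 6 hr, and the groups overlapped. The log2 change of its translation efficiency was -0.05 (standard error 0.32, 0.629- to 1.49-fold). ERDJ3a had 0.02 (standard error 0.27), PDI-2 had -0.13 (standard error 0.28) and Derlin 1 had -0.08 (standard error 0.31). For Zm00001d007285 the log2 change was -0.38 (standard error 0.64) and for Zm00001d042143 -0.11 (standard error 0.80), and the 9 genes that rose in RPFs had a median of 0.56. None of these passed the test.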

How the data were processed

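RPF and RNA libraries came from 6 root lysates, 2 for each of 0, 6 and 12 hr, and were grouped by the sample titles. The authors trimmed reads, removed those from noncoding RNA and mapped the rest to coding sequences of B73 RefGen_v4, and the submitters' processing notes name FastQC, cutadapt 1.16, Bowtie 1.2 and SAMtools. The deposited values are raw counts per gene without normalization. Whether PCR duplicates were removed is not given in the sources used here, so the true error may exceed counting error. The labels and the methods differ in seedling age.

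Library totals ran from 1667094 to 12328304. No column was left unused (0). Counts were tested with edgeR 4.0.16 (R 4.3.3, glmQLFit and glmQLFTest) on all 6 libraries of a type, with time point as the factor, the contrast 12 minus 6 hr, actin scaling, filterByExpr and Benjamini-Hochberg adjustment (threshold 0.05). Translation efficiency was tested in 1 model of 12 libraries with the lysate as a term. The standard error is the size of the log2 change over the square root of F, and 95% intervals are 1.96 standard errors wide on either side. That multiple is from the normal curve, which the actin fit of RPFs follows. The other fits do not follow it, so their intervals are somewhat too narrow. Fitted changes used a prior count of 0.125. The methods were tested on simulated data with the same spread for every gene, and without scaling to simulated actin counts. How the calls behave with a noisy actin standard or with spread that differs between genes was not tested. DESeq2 1.42.0 and limma 3.58.1 were alternatives, as were other scalings, filters, a robust fit in edgeR, a replicate block and leaving out each library. The p-values rest on the spread between biological duplicates. In the actin fit of RPFs that spread was pooled over genes and over all 6 ribo-seq libraries. The p-value of a gene in that fit therefore hardly reflects the gap between its own duplicates.

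The genes named are those with a complete locus identifier in the paper, those past the test with the largest change, a mean of at least 50 counts and no overlap between time points, and those with the smallest p under TMM. If fewer than 2 passed in a direction, the smallest p with actin scaling was to decide. In the lower direction that rule gave genes that are not printed here. The lower genes printed are the sole call and the gene with the smallest p under TMM. In the higher direction the gene with the smallest p under TMM is described without its identifier. Of the identifiers in the file, 0 matched the reference table, so at most 2 were printed per direction, and lists of genes by function and cell type markers could not be used. The members and lists were chosen with earlier results of these data known.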

Additional observations from a re-analysis of the deposited data

How the results depend on the processing

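The 10 RPF calls depended on the processing. Against 10 with actin scaling, edgeR called 0 with TMM, 0 with total counts, 4 with at least 10 counts in each 6 and 12 hr library, 5 with the 6 and 12 hr libraries alone, and 0 to 7 when a library was left out, while limma voom called 5 and DESeq2 with actin size factors 0. edgeR called 13 with alpha tubulin 3, 11 without a filter and 8 with the robust fit, of which 9, 10 and 7 were among the 10, and DESeq2 with its own size factors called 9 (2 higher and 7 lower), of which 2 were. TMM with the 6 and 12 hr libraries alone, added after seeing the data, called 6, of which 3 were among the 10. The median log2 change of 0.29 became 0.0086 with TMM, 0.0071 with total counts, 0.47 with alpha tubulin 3, -0.0040 with DESeq2's own size factors and 0.16 to 0.38 without 1 library. The RNA count of 0 became 41 without a filter, 2 in DESeq2, 0 to 154 without 1 library, and, added after seeing the data, 156 with actin and 16 with TMM for the 6 and 12 hr libraries alone. The translation efficiency count of 0 was 0 to 1 without 1 lysate. The cause of these shifts was not tested.

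Whether replicate numbers pair the samples differed between comparisons, and the main fit has no replicate block. In RPFs, 12 over 6 hr differences had SDs of 0.274 and 0.342 within a replicate number and of 0.373 and 0.474 across them. The differences between duplicates correlated across genes at 0.354 (0 and 6 hr), 0.0326 (0 and 12 hr) and 0.467 (6 and 12 hr) in RPFs, and at -0.116, -0.333 and 0.115 in RNA. With the replicate block the RPF count was 2 with actin and 0 with TMM (median log2 change 0.013), and the RNA count stayed at 0. In edgeR with TMM, 840 genes had an unadjusted p under 0.05 with the block and 544 without it. The smallest adjusted p was 0.0657 with the block and 0.114 without it.

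Among named genes, directions turned for genes that did not pass the test. PDI-2 had -0.028 with TMM, -0.034 with total counts, -0.035 with the replicate block and TMM and -0.040 in DESeq2 with its own size factors. PAB2 had -0.10, -0.10, -0.10 and -0.11 under the same settings. Alpha tubulin 3 had 0.09 without 6 hr replicate 1 and ranged from -0.48 to 0.16 without 1 library, the highest without 12 hr replicate 2. Of the called genes only the one with 4 and 290 counts at 12 hr turned, with -0.21 without 12 hr replicate 2, in a range of -0.21 to 4.08 without 1 library.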
